A study of Mus musculus with 6 samples.

Results

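The inflammasome genes are 10 of the 23420 genes counted in RNA sequencing libraries of mouse retina, taken from the table by symbol: the sensors Nlrp3, Nlrc4, Naip5 and Aim2, the adaptor Pycard, the caspases Casp1 and Casp4, the pore-forming protein Gsdmd and the cytokines Il1b and Il18. They were followed across 3 groups of 2 libraries each. Control retinas came from mice without treatment. Light-exposed retinas were taken 4 days after 1 h of bright white light, for which the sample labels give 10000 lux. The remaining retinas came from mice that had the same light exposure and received intraperitoneal minocycline at 45 mg/kg daily, for 4 days as the labels put it. No vehicle injection is named for the control and light-exposed animals of the sequencing experiment. The labels name the outbred strain CD1, whereas the methods describe adult albino BALB/cJ mice of both sexes, a stronger light and an injection scheme that began before the exposure. No genetic change is given for any group. RNA was isolated from whole retina without sorting, so that fewer cells of a type and less RNA per cell cannot be told apart in any value given here. Since the minocycline columns have identical headers, these libraries are referred to as minocycline A and B.

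Inflammasomes are cytosolic protein complexes that activate inflammatory caspases. A sensor recognizes microbial products or signs of cell damage and recruits caspase-1, often through the adaptor ASC, which Pycard encodes. Active caspase-1 cleaves the precursors of interleukin-1β and interleukin-18 and also gasdermin D, whose released fragment forms pores in the plasma membrane and leads to a lytic cell death called pyroptosis. In the retina, microglia and invading macrophages are regarded as the main cells with a complete set of these proteins. The messages measured here say nothing about assembly of the complex or cleavage of its substrates.

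Total counts ranged from 15205930 in control 1 to 22856922 in minocycline A. Values are given as counts and as CPM, the count scaled to a common library size after TMM adjustment. A gene without a count in a library may still hold up to 3 counts by counting error, which is 0.131 CPM in minocycline A and 0.214 CPM in control 1. Control 1 held 77778 counts of the female transcript Xist, and the other libraries 25 to 188. Markers of rods, the defining cells of the tissue, summed to 109435 and 85178 CPM in control, 63666 and 45231 CPM after light and 93168 and 100162 CPM with minocycline. All 11 rod markers were lower after light (median log2 difference -0.82) and higher with minocycline than after light alone (median 0.86). Both differences run opposite to the 6 called genes described below. In either comparison 0 of the 11 were called. Over all genes, 4 of 14349 were called lower after light and 2 of 14750 higher with minocycline. The part of the rod difference in the values of the 6 called genes was not tested. The 14 markers of corneal and surface epithelium summed to 221 and 319 CPM in the minocycline libraries and to between 9.84 and 25.8 CPM in the other libraries. Among the markers of endothelium and mural cells, the smooth muscle gene Acta2 had 23.7 and 136 CPM with minocycline and at most 5.55 CPM elsewhere. Myh11 and Tagln were likewise higher in both minocycline libraries, whereas Pdgfrb and Rgs5 were not. Markers of the pigment epithelium summed to 397 and 607 CPM in control, 349 and 387 after light and 346 and 434 with minocycline. The part of these tissues in the values below was not tested.

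Of the 10 genes, 9 had a promoter in the RefSeq table of the assembly GRCm38.p6, in 11 windows that reach from 250 bases before to 50 bases after the start site. Gsdmd had none. Casp1 and Casp4 are neighbors on the plus strand of chromosome 9, where the end of Casp1 lies 1563 bases before the start of Casp4. The stretches before the start sites of Casp1 (chr9:5298267-5298516, plus strand), Pycard (chr7:127993868-127994117, minus strand) and Casp4 (chr9:5308599-5308848, plus strand) are shown because these genes had the lowest control counts among the genes that rose after light. Capitals mark the PU.1 core in Casp1 and Pycard and the NF-kB motif in Casp4.
Casp1: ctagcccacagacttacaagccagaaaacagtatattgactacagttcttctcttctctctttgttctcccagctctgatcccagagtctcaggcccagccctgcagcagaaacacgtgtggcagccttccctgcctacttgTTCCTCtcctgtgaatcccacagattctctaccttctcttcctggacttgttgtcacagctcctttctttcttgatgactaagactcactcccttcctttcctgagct
Pycard: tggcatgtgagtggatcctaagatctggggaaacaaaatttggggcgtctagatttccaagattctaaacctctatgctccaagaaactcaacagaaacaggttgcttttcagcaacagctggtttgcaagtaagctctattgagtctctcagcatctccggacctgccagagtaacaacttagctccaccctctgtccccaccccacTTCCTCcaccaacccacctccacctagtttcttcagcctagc
Casp4: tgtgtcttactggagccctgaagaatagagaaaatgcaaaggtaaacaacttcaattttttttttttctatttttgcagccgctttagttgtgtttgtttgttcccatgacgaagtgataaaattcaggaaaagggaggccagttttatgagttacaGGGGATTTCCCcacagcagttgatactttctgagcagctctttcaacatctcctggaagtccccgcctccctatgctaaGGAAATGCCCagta

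PU.1 is the transcription factor that specifies myeloid cells, and its core, searched as GAGGAA on both strands, was present in the windows of 4 of the 9 genes, Aim2, Casp1, Nlrp3 and Pycard. Of all 27025 genes with a window, 31.2% hold it. The NF-kB motif, which belongs to a family of factors that induce inflammatory genes, was found in 2 of the 9 genes, Casp4 and Nlrp3, and in 5.48% of all genes. Casp4 held 3 matches, of which 2 overlap by all but 1 base. The interferon response element was found in 0 of the 9 genes and in 3.99% of all genes. The AP-1 motif TGANTCA was likewise found in 0 of the 9 genes and in 8.97% of all genes. These are letter matches and not measured binding sites.

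The first comparison asked which of these genes differed 4 days after light exposure. Pycard, Casp1, Naip5, Casp4, Aim2 and Gsdmd were higher in the light-exposed retinas, by 4.68-fold for Gsdmd up to 34.6-fold for Casp1, and were called, which required edgeR's quasi-likelihood test at an adjusted p below 0.05 together with the fold cutoff of 2 on the log2 scale. Il18 did not pass, and Nlrp3, Nlrc4 and Il1b had too few counts for the filter. Thus 6 of the 10 members were called higher and 0 lower, where 2.89% of the 14349 genes tested were called higher. Several members passed the filter on low counts through the light-exposed libraries alone. The size of the folds depended on single libraries. With 1 library left out at a time, the log2 difference ran from 4.18 to 8.55 for Casp1, from 3.30 to 8.96 for Naip5 and from 1.41 to 2.73 for Gsdmd. Casp1 was at 4.18 without control 1, below Pycard at 5.08, and Naip5 at 8.96 was the highest member without control 2, where the remaining control library had 0 counts of Naip5 and of Casp1, so that these fitted values are no bound. Without a filter all 10 members were fitted and the same 6 were called, against 2.64% of 18252 genes.

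Among the sensors, Aim2, which binds double-stranded DNA in the cytosol, had 6 and 9 counts in the control libraries and 34 and 110 in light 1 and light 2. With minocycline it had 13 and 5 counts. The light-exposed libraries stood above all others, and the control and minocycline libraries overlapped. The mean level was 0.530 ± 0.145 CPM in control, 3.60 ± 2.29 CPM in light-exposed and 0.416 ± 0.215 CPM in minocycline retinas (SD, n = 2). Aim2 rose after light by 2.76 on the log2 scale (SE 0.57, edgeR adjusted p = 0.0197). It lies on chromosome 1 (GRCm38, 173350879 to 173466040, plus strand) and overlaps Cadm3, a neuronal adhesion gene on the opposite strand with 2734 and 2540 counts in control, 3681 and 5179 after light and 5461 and 2875 with minocycline. Whether strand was used in counting is not stated, so that reads of Cadm3 in the Aim2 counts cannot be told apart.

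Naip5, which binds bacterial flagellin and passes the signal to NLRC4, had 0 and 5 counts in control retinas, 31 and 111 after light and 7 and 2 with minocycline. Both light-exposed libraries exceeded the others, and control and minocycline overlapped. The log2 difference after light was 4.28 (SE 0.96, edgeR adjusted p = 0.0345), the call nearest to the threshold. Naip5 has close paralogs on chromosome 13 that can share reads, so its counts are uncertain. Its paralog Naip2, a sensor of bacterial secretion proteins, had 5 and 1, then 37 and 160, then 10 and 2 counts in the same order of groups.

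Nlrc4, the partner of the NAIP proteins, had 0 and 1 counts in control, 0 and 2 in light-exposed and 0 and 0 in minocycline retinas. No fold is given at these counts, and a difference was not detectable at this depth. Nlrp3, the sensor of ion efflux and membrane damage, had 2 and 5 counts in control, 5 and 19 in light-exposed and 6 and 3 in minocycline retinas. Only light 2 stood clearly above the rest, and control and light-exposed libraries overlapped in CPM. Without a filter the log2 difference after light was 1.28 (95% interval -0.37 to 2.93, edgeR adjusted p = 0.352), an interval that includes both 0 and the cutoff of 2.

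The adaptor Pycard was nearly silent in control retinas, with 1 count in either library. It had 29 and 74 counts after light and 8 and 13 with minocycline, so that the 3 groups did not overlap. The mean level was 0.0708 ± 0.000761 CPM in control retinas (SD, n = 2), 2.60 ± 1.29 CPM after light and, with minocycline, 0.519 ± 0.239 CPM. The log2 difference after light was 5.07 (SE 0.73, edgeR adjusted p = 0.00806), the lowest adjusted p among the members. By counting alone, 103 light-exposed counts against 2 control counts give a ratio of 38.0 with an exact 95% interval of 10.3 to 318, which covers counting error only.

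Casp1, the protease of the canonical inflammasome, had 0 and 2 counts in control, 29 and 77 in light-exposed and 6 and 2 in minocycline retinas. The light-exposed libraries were far above the others, and light 2 was above light 1. Casp1 rose after light by 5.11 on the log2 scale (SE 0.83, edgeR adjusted p = 0.0112). The ratio of the 106 light-exposed to the 2 control counts was 39.1, with an exact 95% counting interval of 10.6 to 327.

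Casp4 is the mouse symbol of caspase-11, which binds bacterial lipopolysaccharide directly and cleaves gasdermin D without a separate sensor. It had 2 and 1 counts in control, 11 and 31 in light-exposed and 3 and 3 in minocycline retinas. Its log2 difference after light was 3.25 (SE 0.76, edgeR adjusted p = 0.0247). The counting ratio of 42 to 3 counts was 10.3, with an exact 95% interval of 3.30 to 52.1.

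Gsdmd, the pore-forming substrate of both caspases, was already detected in control retinas with 11 and 15 counts. It had 42 and 129 counts after light and 21 and 18 with minocycline. The level was 0.920 ± 0.190 CPM in control, 4.28 ± 2.59 CPM in light-exposed and 0.935 ± 0.0239 CPM in minocycline retinas (SD, n = 2). Gsdmd rose after light by 2.23 on the log2 scale (SE 0.51, edgeR adjusted p = 0.0245), the member closest to the fold cutoff among those called.

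Neither cytokine was called. Il18, which is made as a precursor and needs cleavage by caspase-1, had 87 and 87 counts in control, 123 and 215 in light-exposed and 138 and 121 in minocycline retinas, which is 6.16 ± 0.0662, 8.68 ± 2.14 and 6.22 ± 0.259 CPM (SD, n = 2). Both light-exposed libraries were above both control libraries in CPM, as in 30.1% of the genes tested in this comparison, and they were also above both minocycline libraries. The log2 difference was 0.51 (95% interval -0.14 to 1.15, edgeR adjusted p = 0.282), so that a change by the cutoff of 2 lies outside the interval. Il1b had 13 and 2 counts in control, 6 and 8 in light-exposed and 12 and 5 in minocycline retinas. The highest and the lowest CPM were both found in control libraries, and all groups overlapped. Without a filter its log2 difference after light was -0.53 (95% interval -2.13 to 1.08, edgeR adjusted p = 0.717). Il18 overlaps Bco2 on the opposite strand, which held 17 to 37 counts per library, and Il1b overlaps the antisense gene Il1bos.

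**Figure D1:**
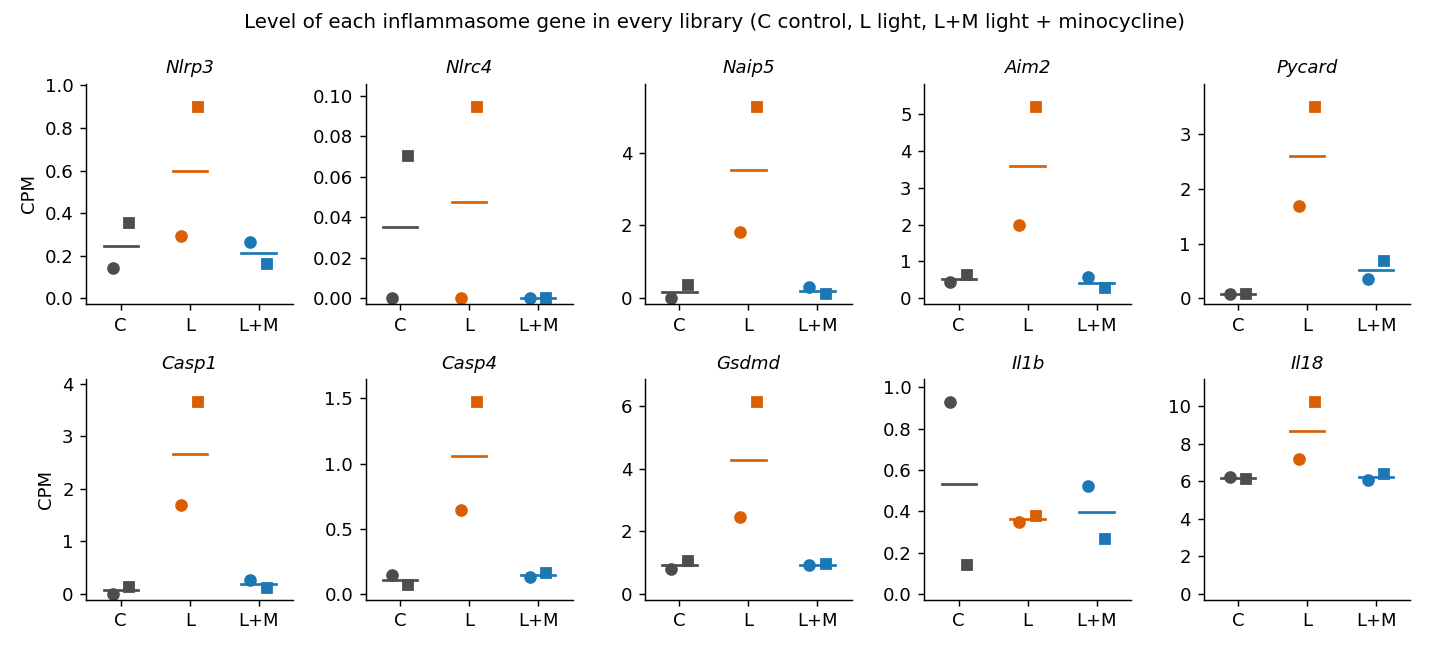
Level of each inflammasome gene in CPM (vertical axis, from 0, scaled per gene) in control (C), light-exposed (L) and light-exposed minocycline-treated (L+M) libraries. Points are single libraries (circles for control 1, light 1 and minocycline A, squares for control 2, light 2 and minocycline B) and lines are means of n = 2. Light 2 is the highest library for every gene but Il1b, where control 1 is highest.

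The light-exposed libraries were not alike. Light 2 held 2.08 times (Pycard) to 2.91 times (Naip5) the CPM of light 1 in the 6 called genes, 1.42 times in Il18 and 1.08 times in Il1b. The summed level of 18 microglial and macrophage markers was 3.26 times as high in light 2 as in light 1. With light 2 left out, 3 members were called, Pycard, Casp1 and Naip5, against 1.70% of genes, and with light 1 left out all 6, against 5%. With either control library left out 0 members were called, with edgeR adjusted p-values of 0.0651 to 0.181, while all 6 fold changes stayed above 0. In those fits 3 genes in all (0.0202%) were called higher without control 1 and 13 (0.0875%) without control 2. DESeq2 without shrinkage called 5 of the members after light, all but Casp4, against 3.08% of genes. With shrunken fold changes it called 0, against 0.485%, since the largest shrunken log2 value was 1.41.

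**Figure D2:**
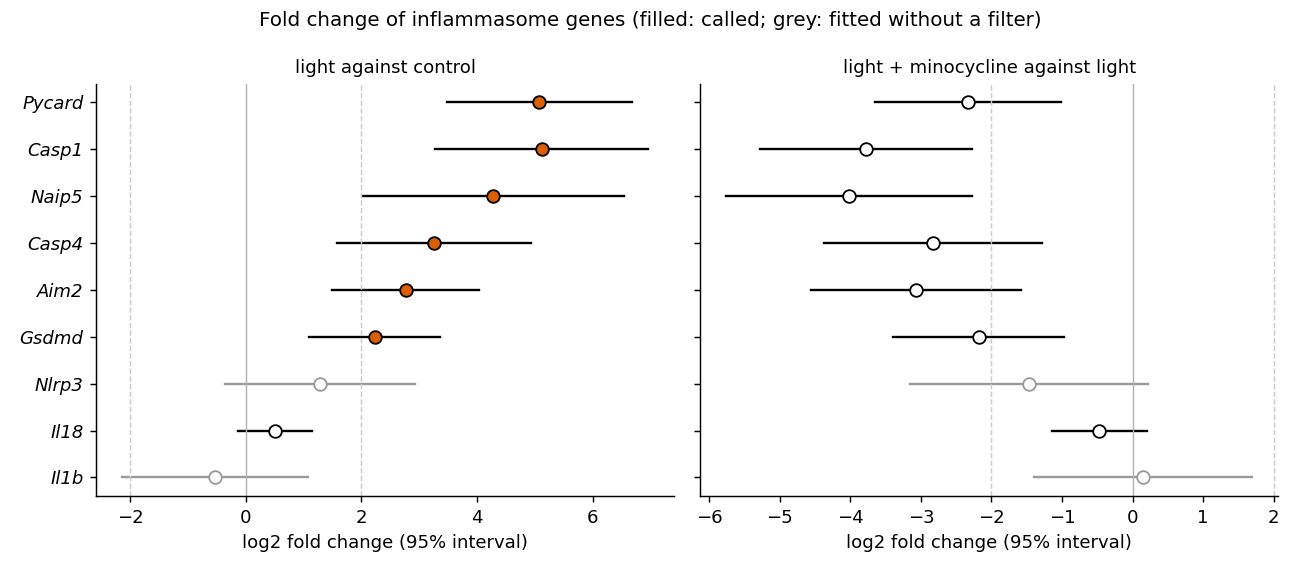
Log2 fold change of 9 inflammasome genes (horizontal axis, points with 95% intervals) for light against control on the left and light plus minocycline against light on the right. Filled points passed the adjusted p and the fold cutoff (dashed lines), grey ones were fitted without a filter, and Nlrc4 is left out for its low counts. The 6 genes called on the left have fold changes of -2.18 to -4.02 on the right, where no point is filled.

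The second comparison asked how the same genes differed when light-exposed mice had also received minocycline. Naip5, Casp1, Aim2, Casp4, Pycard and Gsdmd were lower in both minocycline libraries than in both light-exposed libraries, as were 28.1% of the 14750 genes tested. The fitted differences ran from -2.18 (SE 0.52) for Gsdmd over -2.33 (SE 0.56) for Pycard, -2.83 (SE 0.66) for Casp4, -3.07 (SE 0.63) for Aim2 and -3.77 (SE 0.64) for Casp1 to -4.02 (SE 0.73) for Naip5, on the log2 scale. None of them passed, with edgeR adjusted p-values of 0.0698 to 0.0901. In this fit 0 members were called, against 0.0339% of all genes called lower, and 6 members had an unadjusted p under 0.05 with a lower level, as had 12.1% of all genes.

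The call depended on the fit. Without a filter the same 6 genes were called lower (edgeR adjusted p 0.0109 to 0.0476), where 1.13% of the genes were. DESeq2 without shrinkage called Aim2, Naip5, Gsdmd, Pycard and Casp1, against 1.96% of genes. With all 6 libraries in one fit Aim2, Gsdmd and Casp1 were called, against 1.48%. With light 1 left out 5 members were called, all but Casp4, against 2.67% of genes. Since the light-exposed libraries enter both comparisons, their values stand side by side here and do not support each other.

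Il18 was 0.47 lower with minocycline on the log2 scale (95% interval -1.14 to 0.20, edgeR adjusted p = 0.400), and Il1b differed by 0.15 (95% interval -1.40 to 1.69, edgeR adjusted p = 0.943) without a filter. Nlrp3 was lower in CPM in both minocycline libraries than in both light-exposed ones, where light 1 (0.291 CPM) and minocycline A (0.262 CPM) lay less than 1 count apart, with a log2 difference of -1.47 (SE 0.78, edgeR adjusted p = 0.341) without a filter.

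The third comparison set the minocycline-treated light-exposed retinas against control. Only Gsdmd and Il18 passed the filter on low counts. Gsdmd differed by 0.06 on the log2 scale (95% interval -0.94 to 1.07) and Il18 by 0.06 (95% interval -0.57 to 0.68), and 0 members were called against 0.134% of 14181 genes. With edgeR 0 of both had an unadjusted p under 0.05, and DESeq2 called 0 of all 10. Pycard had more counts in both minocycline libraries than in both control libraries, as 16.4% of the genes with a count did in CPM. Its 21 minocycline counts against 2 control counts give a ratio of 7.10 with an exact 95% counting interval of 1.74 to 62.4, and the fit without a filter gave 2.76 (SE 1.06, edgeR adjusted p = 0.372). The libraries of the other members overlapped between these groups. For Casp1 the difference without a filter was 1.35 with a 95% interval of -1.45 to 4.15, so that the depth left a wide range open.

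Levels between genes were compared per kilobase of exon (CPM per kilobase), using exon lengths of the GENCODE annotation. Il18 ranked first in every group, at 5.98 in control retinas, 8.42 after light and 6.03 with minocycline. Gsdmd ranked second by its mean in every group, at 0.387, 1.80 and 0.393. In control 1, however, Il1b at 0.486 stood above Gsdmd at 0.330. After light, Casp1 followed at 1.78 ± 0.926 and Aim2 at 1.03 ± 0.653, and these neighbors, with Gsdmd at ± 1.09, do not differ beyond their spread (SD, n = 2). By its mean Casp1 stood at rank 6 in control, rank 3 after light and rank 5 with minocycline. The control rank rests on 0 and 2 counts, which is within counting error, so that a change of rank cannot be read from it. Il1b, at 0.280 ± 0.292 in control and 0.191 ± 0.0110 after light, stood at rank 3 and rank 8. Nlrc4 was last throughout.

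**Figure D3:**
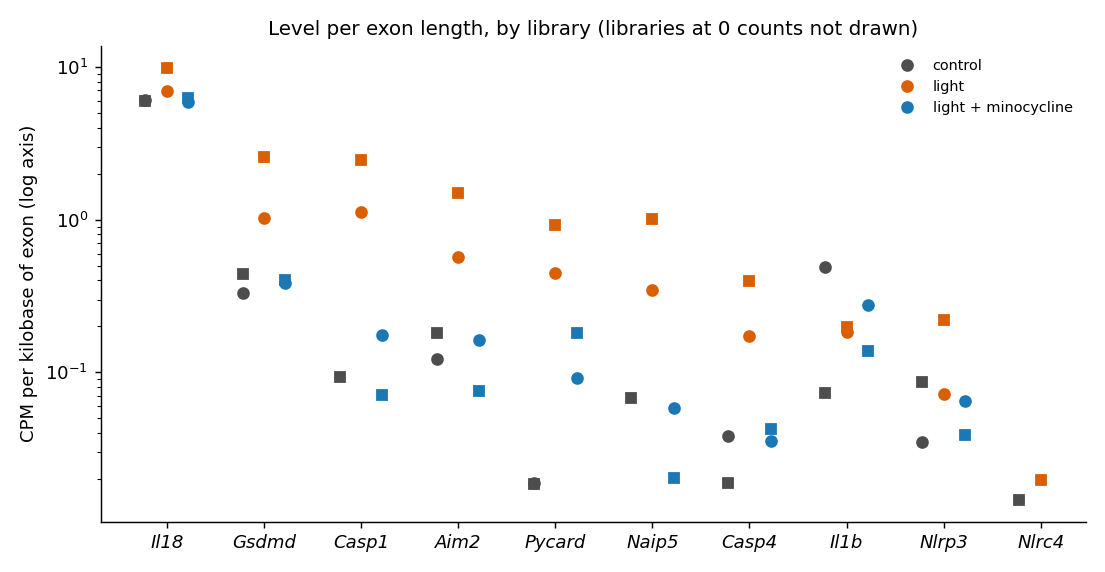
Level by exon length (CPM per kilobase, log axis) of the inflammasome genes in each library, ordered by the mean after light. Il18 lies near 6 in control and minocycline libraries, above every other member, and the genes from Gsdmd to Casp4 have both light-exposed points above all other points.

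Microglial markers moved with these genes. The 18 microglial and macrophage markers, all of them detected in every library, summed to 87.1 and 99.2 CPM in control, 757 and 2467 CPM in light-exposed, 177 CPM in minocycline A and 88.2 CPM in minocycline B. All 18 had a higher fitted level after light, with a median log2 difference of 4.17, and 5 were called, against 2.89% of all genes. All 18 were lower with minocycline than after light alone, with a median of -3.63, and 0 were called, against 0.0339% of all genes. The 14 monocyte and neutrophil markers summed to 0.928 and 0.422 CPM in control libraries, 2.21 and 2.80 CPM after light and 1.71 and 2.01 CPM with minocycline, with Camp and Elane, proteins of neutrophil granules, at 0 in every library. Among them Ccr2, the chemokine receptor of recruited monocytes, had 0 and 0 counts, then 10 and 12, then 1 and 0. S100a8, a calcium-binding protein of neutrophils and monocytes, had 1 and 0, 7 and 24, and 4 and 2 counts. Its partner S100a9 had 2 and 0, 6 and 4, and 10 and 2 counts, and Plac8, another myeloid marker, 3 and 0, 3 and 3, and 9 and 27, so that these 2 were not lower in both minocycline libraries. These 4 markers were picked out after their values were seen. The 13 lymphocyte markers summed to 0.793 to 2.09 CPM, with 3 at 0 in every library. Markers of Müller glia and astrocytes summed to 2191 and 3173 CPM in control, 4063 and 5416 after light and 3171 and 4126 with minocycline. The part of these cells in the changes of inflammasome genes was not tested.

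Set against the summed microglial markers, the members fell into different patterns. For each 1000 CPM of markers, Casp1 stood at 0 and 1.42 CPM in control retinas, 2.23 and 1.48 after light and 1.48 and 1.20 with minocycline. Naip5 stood at 0 and 3.54, 2.39 and 2.13, and 1.73 and 1.20 in the same order. Pycard stood at 0.820 and 0.708 in control, below 2.23 and 1.42 after light and 1.98 and 7.79 with minocycline. Both light-exposed libraries were above both controls on this scale for Pycard and, by a small margin, for Casp1, and overlapped them for Naip5. Casp4, at 1.64 and 0.708 in control and 0.847 and 0.596 after light, overlapped as well.

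The opposite order was seen for Gsdmd, Aim2, Nlrp3, Il1b and Il18, all of which were lower after light than in control on this scale. Gsdmd stood at 9.02 and 10.6 in control, 3.23 and 2.48 after light and 5.20 and 10.8 with minocycline. Aim2 stood at 4.92 and 6.37 in control and 2.62 and 2.11 after light. Il18 stood at 71.3 and 61.6, 9.47 and 4.13, and 34.2 and 72.5. The sum gives most weight to abundant markers such as Lyz2, which rose by 6.82 on the log2 scale to 146 and 552 CPM after light. Other markers rose less, P2ry12 by 1.73 and Tmem119 by 2.29. Gsdmd (2.23) and Aim2 (2.76) rose by more than P2ry12, so that their order on this scale rests on the markers summed. These ratios are descriptions and not levels per cell, and the control values rest on few counts for all members but Il18.

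**Figure D4:**
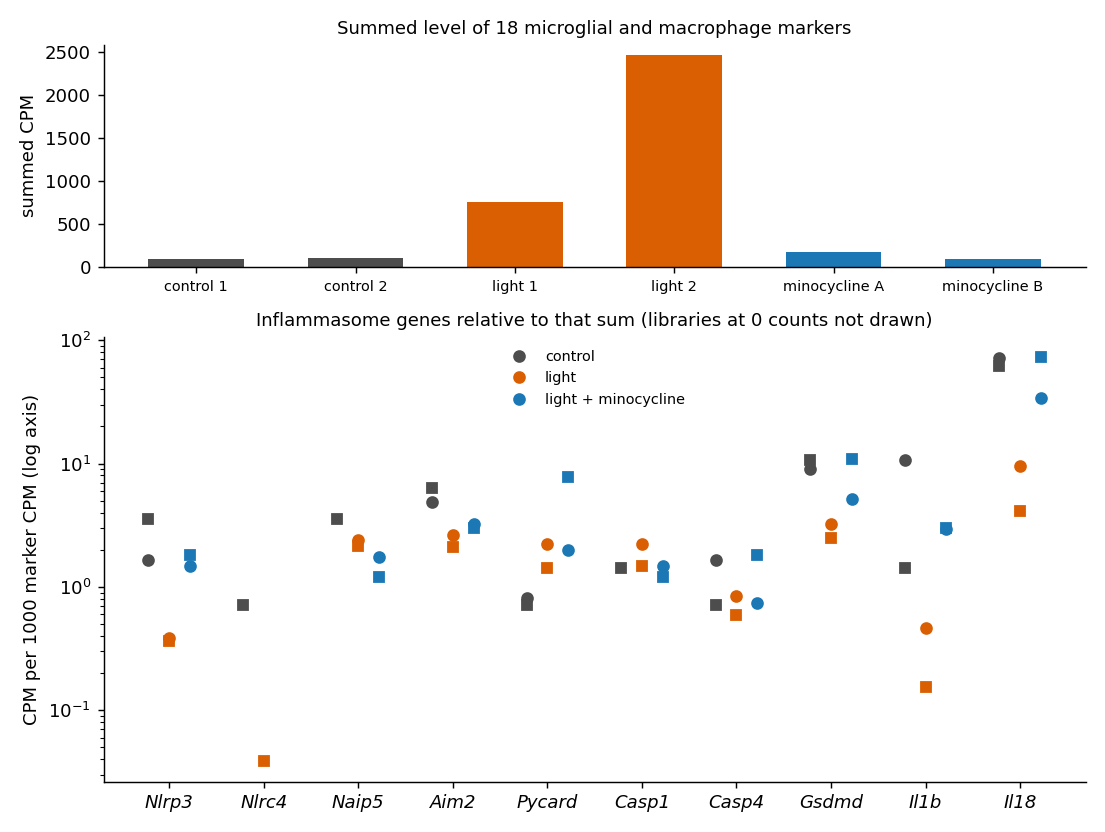
Top, summed CPM of 18 microglial and macrophage markers per library, from 88.2 or less in the lowest libraries to 2467 in light 2. Bottom, CPM of each inflammasome gene per 1000 CPM of these markers (log axis, single libraries), where Pycard has both light-exposed points above both control points and Il18, Gsdmd and Aim2 have both below. Circles and squares mark the same libraries as in the plot of CPM by library.

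The genes with the profile nearest to Casp1 over the 6 libraries were Btk, Galnt6, Vav1, Syk and Tifab, with root mean square distances of 0.223, 0.240, 0.276, 0.278 and 0.300 in centered log2 CPM. They were found among 14489 genes with at least 60 counts in all. Btk, a signaling kinase of B cells and myeloid cells, had 1 and 4 counts in control, 36 and 140 after light and 8 and 3 with minocycline. Vav1, a guanine nucleotide exchange factor of blood cells, had 4 and 9, 69 and 307, and 18 and 10 counts. Of the members, Naip5 ranked 8 by this distance (0.322), Aim2 161, Pycard 195, Gsdmd 289 and Il18 2451. Casp4, Nlrp3, Il1b and Nlrc4 had fewer than 60 counts in all and were not ranked. The libraries share their depth and cell composition across genes, and no test was made.

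The wider pathway was described with 5 lists. In the list of priming and triggering genes, which covers receptors, kinases and GTPases that raise or start inflammasome activity, all 25 genes were tested. Of these, 13 were called higher after light, against 2.89% of all genes, and 16 had an adjusted p under 0.05 with a higher level, against 7.52% of all genes. These 13 calls became 0 without control 1 or without control 2 (0.0202% and 0.0875% of all genes), 7 without light 2 (1.70%), 3 with DESeq2 and shrunken fold changes (0.485%) and 8 where every library had to hold at least 10 counts (1.07%). Several of the 25 passed the filter through the light-exposed libraries, so that no median is given. Among these are P2rx7, Syk (3 and 7 counts in control) and Card9 (8 and 6 counts in control), which belong to the 13 called. Gbp2, an interferon-inducible GTPase that attacks vacuoles and bacteria, had 43 and 37 counts in control, 185 and 426 after light and 110 and 117 with minocycline, and rose by 2.46 (adjusted p = 0.00806). Tlr4, the receptor of lipopolysaccharide, had 5 and 5, 49 and 127, and 31 and 45 counts and rose by 3.64 (adjusted p = 0.00818). Irgm1, a regulatory GTPase of the same interferon system, had 31 and 24, 154 and 399, and 103 and 130 counts. P2rx7, the ATP-gated channel that triggers NLRP3, had 5 and 8, 54 and 164, and 21 and 9 counts and rose by 3.56 (adjusted p = 0.0108). In CPM both minocycline libraries lay between the control and the light-exposed libraries for Gbp2, Tlr4 and Irgm1, as for Pycard. Other genes of the list had the same order, such as Gbp3, Gbp5, Gbp7, Irf1, Ctsb and Lgals3. For P2rx7 and Cd14, minocycline and control libraries overlapped. The share of all genes with this order was not counted.

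Of the 21 other sensors, 8 could be tested and 2 were called higher after light, against 2.89% of all genes. The number called was 4 without a filter (2.64% of all genes) and with DESeq2 without shrinkage (3.08%). It was also 4 without robust estimation and with the replicate block, where 491 and 473 of 14349 genes were called higher. Several of the 8, such as Naip2 and the Z-nucleic acid sensor Zbp1 (5 and 2 counts in control, 14 and 86 after light, named after its values were seen), passed the filter through the light-exposed libraries, so that no median is given, and the other 13 sensors had too few counts. Nlrc5, an activator of MHC class I genes, had 8 and 19 counts in control, 89 and 247 after light and 14 and 14 with minocycline, and rose by 3.15 (adjusted p = 0.0132). Naip2 rose by 4.49 (adjusted p = 0.0236). Of the 17 other caspases and gasdermins, 8 were tested. Casp8, the initiator caspase of death receptors, was the 1 gene called, against 2.89% of all genes called higher. It had 11 and 5, 40 and 122, and 26 and 25 counts and a log2 difference of 2.84 (adjusted p = 0.0197). Ninj1, which ruptures the plasma membrane in lytic cell death, was higher by 1.82 (adjusted p = 0.0141), below the fold cutoff, with 70 and 47, 184 and 388, and 144 and 95 counts.

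Of the 16 genes that restrain inflammasomes or their cytokines, 12 were tested. Irak3, a kinase-like inhibitor of the interleukin-1 and Toll-like receptor pathways, rose by 2.45 (adjusted p = 0.0230), with 3 and 5 counts in control, 22 and 39 after light and 12 and 8 with minocycline. Birc3, a ubiquitin ligase of the inhibitor of apoptosis family, rose by 2.36 (adjusted p = 0.0236). In this list 2 genes were called, against 2.89% of all genes called higher, and 4 genes had an adjusted p under 0.05 with a higher and 2 with a lower level, against 7.52% and 3.80% of all genes. Of the 16 interleukin-1 family ligands, receptors and signaling genes, 8 were tested, 3 had an adjusted p under 0.05 with a higher level (7.52% of all genes) and 0 were called (2.89% of all genes), where 1 was called without a filter and 2 without light 1. Il33, a nuclear cytokine of Müller glia and other stromal cells, was higher by 1.16 (adjusted p = 0.00918), with 535 and 407 counts in control, 1137 and 1720 after light and 1022 and 691 with minocycline. Irak2, a kinase of the receptor complex, was higher by 0.78 (adjusted p = 0.0330). These adjusted p-values are from edgeR. Without either control library 0 genes of the 5 lists were called after light, and without light 2 there were 2 sensors, 1 brake and 0 genes of the caspase and interleukin-1 lists, against 1.70% of all genes. Without light 1 the calls after light were 6 sensors, 3 caspases and gasdermins, 16 priming and triggering genes, 4 brakes and 2 interleukin-1 family genes, against 5% of all genes. DESeq2 with shrunken fold changes, and a minimum of 10 counts in every library, likewise left 0 calls among the other sensors, the caspases and gasdermins and the brakes. Scaling by total library size gave 3 sensors, 2 caspases and gasdermins, 15 priming and triggering genes and 4 brakes, where 566 of 14349 genes were called higher.

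With minocycline against light, and against control, 0 genes of the 5 lists were called in the fits of these pairs. Of all genes, 0.0339% were called lower against light and 0.134% in either direction against control. As for the members, the number of list genes called depended on the fit. Against light, DESeq2 without shrinkage called 4 of the other sensors, 6 priming and triggering genes and 1 brake, all lower with minocycline, where 1.96% of all genes were. Without a filter, and in one joint fit, 2 sensors and 5 priming and triggering genes were called, all lower, against 1.13% and 1.48% of all genes. With light 1 left out it was 5 sensors, 10 priming and triggering genes and 1 gene in each of the other lists, all lower, against 2.67%. Against control, 1 priming gene, Tlr4, was called higher without a filter, against 0.53% of all genes, and also without minocycline A, against 1.91%.

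**Figure D5:**
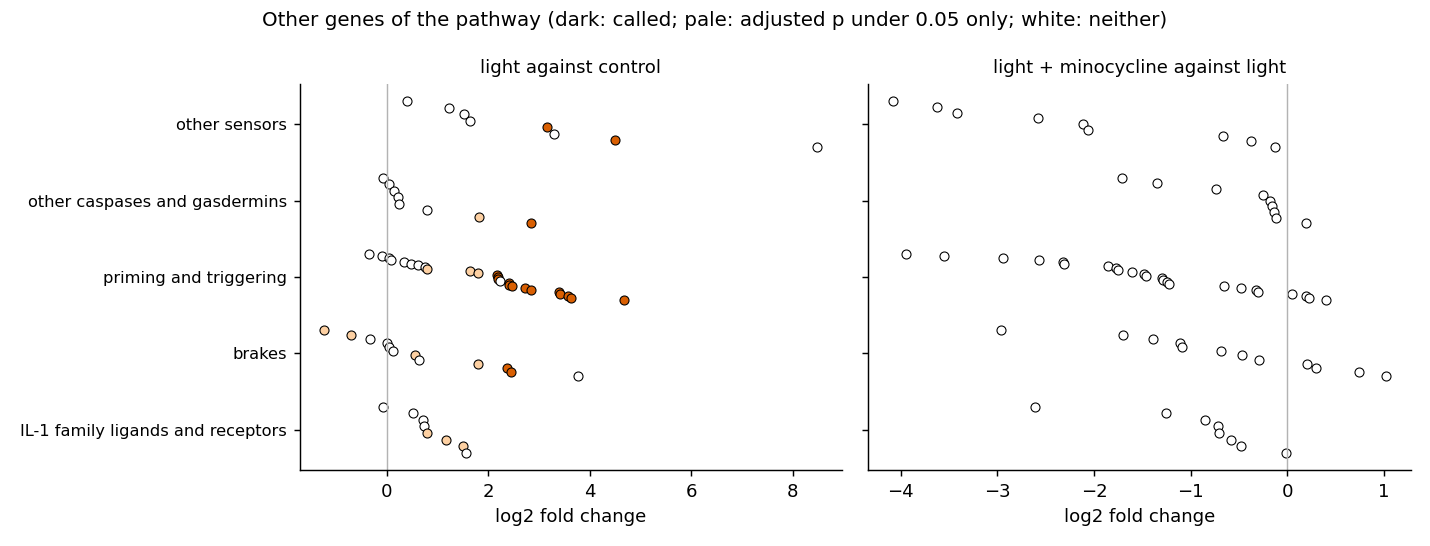
Log2 fold change (horizontal axis) of each tested gene of 5 pathway lists, for light against control on the left and light plus minocycline against light on the right, 1 point per gene. Dark points were called and pale ones passed the adjusted p only. The priming and triggering list has 13 dark points on the left, and the right panel has none.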

How the data were processed

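Retinal RNA was sequenced in 6 libraries, 2 biological replicates per group. The authors aligned stranded mRNA reads to the mm10 genome with STAR in the RNA Express workflow and deposited counts per gene. The data statement calls them normalized, but the values are whole numbers without scaling. The gene annotation and the use of strand in counting are not given in the sources used here. Of the value columns, 0 were left unused. The median library held 17392259 counts, and counts at the lowest levels carry counting error of the same size as the values.

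Pairs of groups were compared by the robust quasi-likelihood F test of edgeR 4.0.16 under R 4.3.3 (TMM scaling, filterByExpr, Benjamini-Hochberg adjustment over all tested genes), tested before on simulated data. Genes were called at an adjusted p below 0.05 with an absolute log2 fold change of 2 or more, the cutoff of the study. Intervals are at 95%. The members and lists were chosen with earlier results of these data known. From each list up to 4 called genes with the smallest p were named, and where fewer than 2 were called the 2 with the smallest p after light, with the 5 genes nearest to Casp1. The minimum of 60 counts for that search was set after seeing the data. Exon lengths and positions are from GENCODE for GRCm38, and promoters from RefSeq. Alternatives were DESeq2 1.42.0, other scalings, filters and thresholds, one joint fit, the replicate number as a block, and each library left out. Since the labels do not name litters or days, p-values measure the spread between these libraries only. Deviations of replicate 1 from the group mean did not correlate between control and light libraries (r = -0.0116 over 14759 genes). With 2 libraries per group this cannot show whether the replicate numbers pair them.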

Additional observations from a re-analysis of the deposited data

How the results depend on the processing

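After light, 6 members were called, also with DESeq2 size factors, total library size, no robust estimation, no filter, one joint fit and no fold cutoff. DESeq2 with shrunken fold changes called 0, and a minimum of 10 counts in every library left 2 members to test, of which 1 was called. Leaving out 1 library gave 0 to 6 calls, where the lone sample is assumed to vary like the other group. With the replicate block 6 members were called. The block moved the calls over all genes from 415 higher and 4 lower to 473 and 5, and changed no other call of a member. No paired analysis was possible because of missing replicate numbers where minocycline libraries were compared. For minocycline against light, 0 members were called, but 5 with DESeq2 without shrinkage, 6 without a filter, 3 in one joint fit and 0 to 5 with 1 library left out. Over all genes DESeq2 without shrinkage called 108 higher and 299 lower in this comparison, against 2 and 5. Against control, the fold change of Gsdmd ran from -0.14 to 0.30 and that of Il18 from -0.0304 to 0.10 with 1 library left out, and both turned below 0 without minocycline B, Gsdmd to -0.00366. Of 204 alternative fold changes of members, 201 kept their direction. Scaling by total library size moved the median of all genes to 0.24 after light and to -0.17 for minocycline against light. Depth limits Nlrp3, Nlrc4 and Il1b in every comparison and Casp1, Casp4, Naip5, Aim2 and Pycard between minocycline and control.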
